A study of Arabidopsis thaliana with 9 samples.

Results

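The genes described here are nuclear genes for proteins of the 2 photosystems of Arabidopsis and of the light-harvesting antennae attached to them. They were chosen by name, as LHCA, LHCB, PSA and PSB loci, by a rule that holds no measured value but was set with earlier results of these data known. Of 43 such loci, 33 had a row among the 20777 loci of the deposited expression table: 5 of 6 LHCA genes, 7 of 15 LHCB genes, all 12 PSA genes and 9 of 10 PSB genes. The other 10 (LHCA2, LHCB1.1 to LHCB1.5, LHCB2.1, LHCB2.2, LHCB3 and PSBX) had no row and were not analysed here, so the most abundant antenna proteins of photosystem II, LHCB1 and most of LHCB2, are outside every statement below.

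All plants were Arabidopsis thaliana of the ecotype Col-0, and 3 genotypes were compared, with 3 biological replicates each: 35S::GA20OX, 35S::JAW and wild type. RNA came from aerial, vegetative tissue of seedlings that had reached growth stage 1.03 in culture on MS medium at 22 °C, with 16 h of light and 8 h of darkness a day, and was measured on Affymetrix ATH1 arrays. In 35S::GA20OX, the constitutive 35S promoter drives a gibberellin 20-oxidase, an enzyme of the late steps of gibberellin synthesis. In 35S::JAW the same promoter drives JAW, a microRNA gene whose product acts against transcripts of a group of TCP transcription factors. The sources used here do not say how many plants made up a sample or whether each construct is represented by more than 1 line. The lines are known for enlarged leaves, and the comparison made here asks whether transcripts of the photosynthetic apparatus differ in such leaves.

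Light absorbed by chlorophyll on the antenna proteins is passed to the reaction centres of photosystems I and II in the thylakoid membrane. LHCA proteins form the antenna of photosystem I and LHCB proteins that of photosystem II. Nuclear PSA and PSB genes encode subunits that dock electron carriers, stabilise the complexes or cover the oxygen-evolving cluster. Their transcripts are among the most abundant in green tissue, and their genes are known to respond together to light, to signals from the chloroplast and to regulators such as the GLK factors.

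All values are RMA expression values on the log2 scale. A difference of 1 is a 2-fold change. Differences were tested with limma over all 20777 loci, and a gene is said to rise or fall only where its Benjamini-Hochberg adjusted p was under 0.05. GA20OX1 (AT4G25420) had 12.94, 12.94 and 13.01 in 35S::GA20OX, 5.07, 5.45 and 5.11 in 35S::JAW, and 6.03, 6.14 and 6.01 in wild type. TCP4 (AT3G15030), a target of the JAW microRNA, had 8.69, 8.65 and 8.70 in 35S::GA20OX, 5.52, 5.93 and 5.74 in 35S::JAW, and 8.72, 8.65 and 8.58 in wild type, so both genes follow the labels. Array medians lay between 6.35 and 6.41. Markers of roots (6 genes, 3.41 to 5.64), flowers (4 genes, 3.25 to 4.27) and seed storage (4 genes, 3.87 to 4.66) lay low on all 9 arrays, whose lower quartiles were 4.28 to 4.42.

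The photosystem genes were nearly level across the 3 genotypes, with 1 exception. LHCB4.3, a minor antenna gene, fell 2.11-fold in 35S::GA20OX, and no other measured gene of the 33 passed the test against wild type in either line. Between the lines LHCB4.3 alone passed, 1.85-fold higher in 35S::JAW. Over all loci, 0.332% passed for 35S::GA20OX against wild type (0.164% higher and 0.168% lower). The share was 8.32% for 35S::JAW against wild type (4.34% higher and 3.98% lower) and 13.2% for 35S::JAW against 35S::GA20OX (6.71% higher and 6.52% lower). Among the 33 genes the counts were 1, 0 and 1 in the same order, and whether they differ from these shares was not tested.

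**Figure D1:**
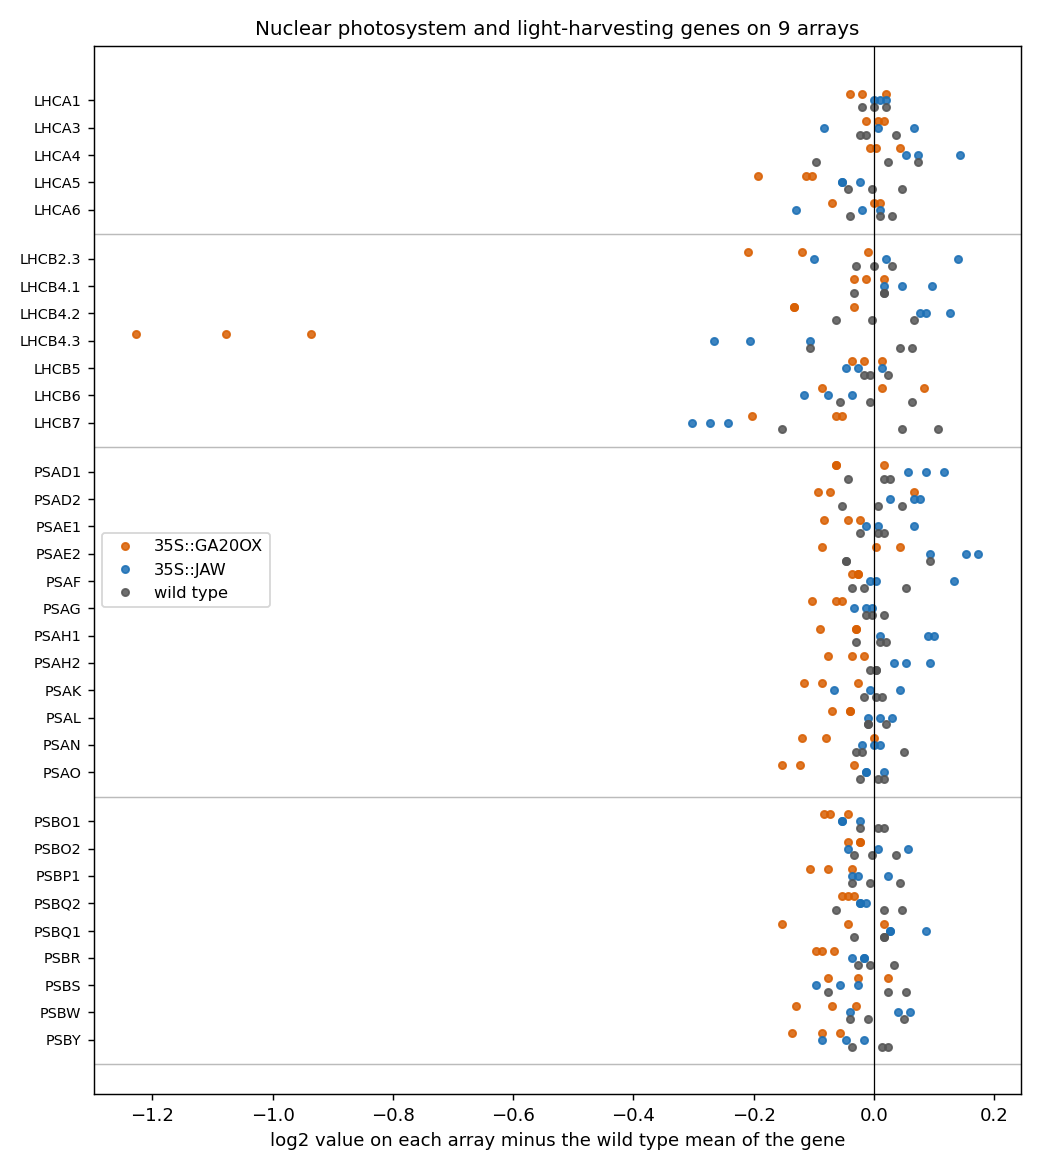
Value of each of the 33 measured genes on each of the 9 arrays, as the log2 value minus the gene's wild type mean (horizontal axis); each row is 1 gene, each point 1 array, and grey lines separate the LHCA, LHCB, PSA and PSB genes. The 3 arrays of 35S::GA20OX stand apart at LHCB4.3, with a mean difference of -1.08, and the other 32 genes have mean differences between -0.28 and 0.14 in both lines.

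LHCB4 is the CP29 protein, a monomeric antenna that connects the major antenna trimers to the core of photosystem II, and Arabidopsis has 3 genes for it. LHCB4.3 (AT2G40100) encodes a form that is shorter at its C-terminal end and is known to accumulate under strong light. Its values were 7.28, 7.57 and 7.43 in 35S::GA20OX, 8.40, 8.30 and 8.24 in 35S::JAW, and 8.40, 8.57 and 8.55 in wild type. All 3 arrays of 35S::GA20OX lay below every other array, while those of 35S::JAW and wild type met at 8.40. The means were 7.43 ± 0.144 in 35S::GA20OX, 8.32 ± 0.082 in 35S::JAW and 8.51 ± 0.092 in wild type (SD, n = 3 each).

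Against wild type, LHCB4.3 fell by 1.08 ± 0.09 in 35S::GA20OX (SE; 95% interval -1.27 to -0.89; limma adjusted p = 0.000496). It ranked 7 from the lowest among the 20777 loci of this comparison. In 35S::JAW the difference was -0.19 ± 0.09 (interval -0.38 to 0.00, limma adjusted p = 0.235), which did not pass. The direct comparison of 35S::JAW with 35S::GA20OX gave 0.89 ± 0.09 (interval 0.70 to 1.08, limma adjusted p = 6.35e-05). These comparisons share arrays pairwise, so they are not independent of each other. In extracts of whole tissue, fewer cells with the transcript and less transcript per cell cannot be told apart.

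LHCB4.1 (AT5G01530) and LHCB4.2 (AT3G08940) are the forms that make up most CP29 in ordinary light, and their differences were smaller in size than those of LHCB4.3 in all 3 comparisons. LHCB4.1 had 13.94, 13.96 and 13.99 in 35S::GA20OX, 14.07, 13.99 and 14.02 in 35S::JAW, and 13.99, 13.99 and 13.94 in wild type. The groups overlapped, and the difference of 35S::GA20OX from wild type was -0.01 (interval -0.14 to 0.12). LHCB4.2 had 13.63, 13.53 and 13.53 in 35S::GA20OX, 13.74, 13.79 and 13.75 in 35S::JAW, and 13.73, 13.66 and 13.60 in wild type. Here 35S::JAW lay above both other genotypes without overlap. The differences were -0.10 ± 0.06 for 35S::GA20OX against wild type (limma adjusted p = 0.623) and 0.10 ± 0.06 for 35S::JAW against wild type (0.457 in the same fit). Between 35S::JAW and 35S::GA20OX LHCB4.2 differed by 0.20 ± 0.06 (interval 0.06 to 0.34, limma adjusted p = 0.0666), and it passed under 4 of 9 other settings of the analysis.

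Within each array, LHCB4.3 was set against the mean of LHCB4.1 and LHCB4.2, which cancels anything that moves all 3 values of an array alike. This within-array value differed by -1.02 between 35S::GA20OX and wild type, by -0.27 between 35S::JAW and wild type and by 0.76 between 35S::JAW and 35S::GA20OX. These values describe the separation already seen for LHCB4.3. An exact two-sided permutation test over arrays gave p = 0.10 in all 3 comparisons. That is the smallest p the test can give with 3 arrays per group, so it cannot decide whether they differ. Because probes differ in brightness, the 3 genes' values are not compared as amounts of transcript, and whether probes of 1 gene also detect a close relative (LHCB4.1 and LHCB4.2, and the PSAD, PSAE, PSAH, PSBO and PSBQ pairs) was not checked.

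**Figure D2:**
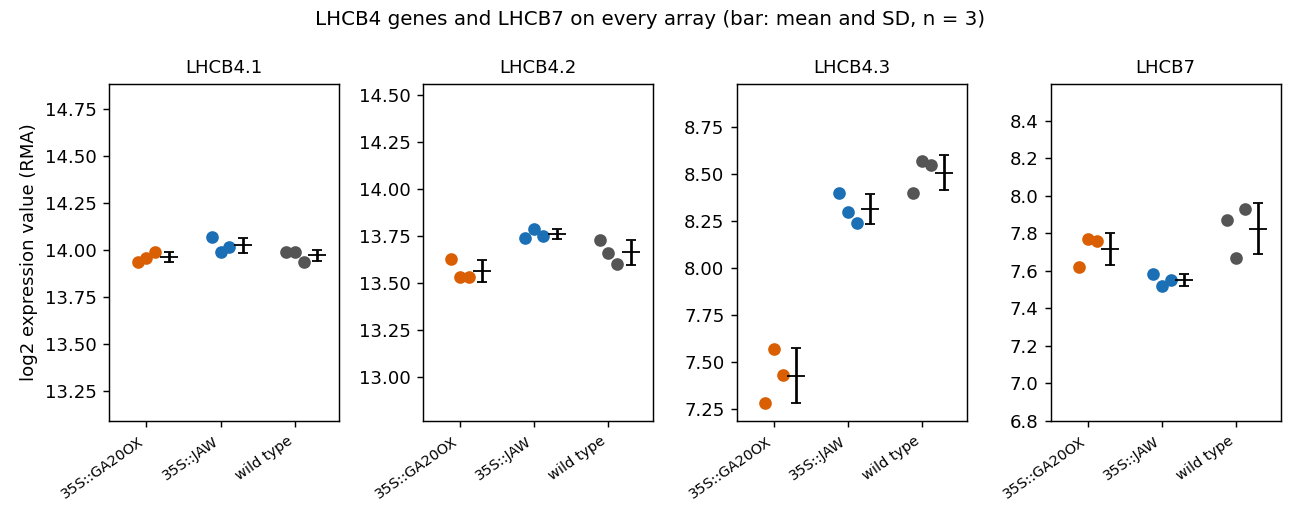
Log2 expression value (vertical axis, with panels of equal span placed around each gene's values) of LHCB4.1, LHCB4.2, LHCB4.3 and LHCB7 in 35S::GA20OX, 35S::JAW and wild type; points are arrays, bars are the mean and SD (n = 3). LHCB4.3 averages 7.43 in 35S::GA20OX, against 8.32 in 35S::JAW and 8.51 in wild type, while LHCB4.1 stays between 13.94 and 14.07.

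The other LHCB genes measured were LHCB2.3, LHCB5, LHCB6 and LHCB7. LHCB7 (AT1G76570), a rare antenna protein, had 7.62, 7.77 and 7.76 in 35S::GA20OX, 7.58, 7.52 and 7.55 in 35S::JAW, and 7.87, 7.67 and 7.93 in wild type. Every 35S::JAW array lay below every other array. The difference of 35S::JAW from wild type was -0.28 ± 0.08 (interval -0.45 to -0.10), the lowest of all 33 genes in that comparison, and its limma adjusted p of 0.0559 did not pass. It passed under 4 of 9 other settings and without wild type replicate 2 (adjusted p = 0.0169), and its adjusted p was 0.203 without wild type replicate 3. In 35S::GA20OX the difference was -0.11 ± 0.08.

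LHCB5, or CP26, and LHCB6, or CP24, are the other monomeric antennae of photosystem II. LHCB6 (AT1G15820) had 14.39, 14.56 and 14.49 in 35S::GA20OX, 14.40, 14.44 and 14.36 in 35S::JAW, and 14.42, 14.47 and 14.54 in wild type. The genotypes overlapped, with differences of 0.00 in 35S::GA20OX (interval -0.15 to 0.15) and -0.08 in 35S::JAW (interval -0.23 to 0.07), both against wild type. LHCB5 (AT4G10340) had 14.18, 14.23 and 14.20 in 35S::GA20OX, 14.23, 14.17 and 14.19 in 35S::JAW, and 14.21, 14.24 and 14.20 in wild type. Its differences from wild type were -0.01 in 35S::GA20OX and -0.02 in 35S::JAW. LHCB2.3 (AT3G27690), a gene of the major antenna trimers, had 13.29, 13.18 and 13.09 in 35S::GA20OX, 13.44, 13.20 and 13.32 in 35S::JAW, and 13.33, 13.30 and 13.27 in wild type. The arrays of a line differed from each other by more than the groups did, and the difference of 35S::GA20OX from wild type was -0.11 ± 0.08 (interval -0.29 to 0.06).

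LHCA proteins flank the core of photosystem I. LHCA1 (AT3G54890), LHCA3 (AT1G61520) and LHCA4 (AT3G47470) belong to its main antenna belt, and LHCA5 and LHCA6 are minor forms known to join photosystem I to the NDH complex of cyclic electron flow. LHCA4 had 13.99, 13.98 and 14.03 in 35S::GA20OX, 14.04, 14.13 and 14.06 in 35S::JAW, and 14.01, 14.06 and 13.89 in wild type. It had the highest LHCA difference in both lines, 0.01 in 35S::GA20OX (interval -0.13 to 0.16) and 0.09 in 35S::JAW (interval -0.05 to 0.24). LHCA5 (AT1G45474) had 11.19, 11.11 and 11.20 in 35S::GA20OX, 11.25, 11.28 and 11.25 in 35S::JAW, and 11.30, 11.26 and 11.35 in wild type. The 35S::GA20OX arrays lay below all others, and the difference from wild type was -0.14 ± 0.06 (interval -0.27 to 0.00, limma adjusted p = 0.461). LHCA6 (AT1G19150) had 11.60, 11.53 and 11.61 in 35S::GA20OX, 11.61, 11.58 and 11.47 in 35S::JAW, and 11.61, 11.63 and 11.56 in wild type. The genotypes overlapped for LHCA6, as they did for LHCA1 and LHCA3, whose differences from wild type lay between -0.02 and 0.01 in both lines.

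Among the 12 PSA genes, the PSAD and PSAE pairs encode the stromal ridge where ferredoxin docks, PSAF and PSAN serve plastocyanin on the lumenal side, and PSAG, PSAH, PSAK, PSAL and PSAO lie at the edges where antennae attach. None of the 12 passed a test. All 12 differences of 35S::GA20OX from wild type were negative, from -0.10 to -0.01 with a median of -0.05, and in 5 genes the arrays of 35S::GA20OX lay below wild type without overlap. Over all loci 48.5% of differences were negative, and 8.3% of loci lay below wild type without overlap. PSAO (AT1G08380) had the lowest value of this comparison, with 13.74, 13.62 and 13.65 in 35S::GA20OX, 13.76, 13.76 and 13.79 in 35S::JAW, and 13.78, 13.75 and 13.79 in wild type. Its difference was -0.10 ± 0.06 (interval -0.24 to 0.03, limma adjusted p = 0.588). PSAE2 (AT2G20260) had the highest, -0.01, with 12.41, 12.32 and 12.45 in 35S::GA20OX, 12.56, 12.58 and 12.50 in 35S::JAW, and 12.36, 12.50 and 12.36 in wild type.

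In 35S::JAW, 8 of the 12 PSA differences from wild type were positive and 4 negative, with a median of 0.03. PSAE2 had the highest of them and of all 33 genes, 0.14 ± 0.07 (interval -0.01 to 0.29, limma adjusted p = 0.280), with 1 wild type array reaching the lowest of 35S::JAW. PSAG (AT1G55670) had the lowest, -0.02, with 13.89, 13.85 and 13.90 in 35S::GA20OX, 13.92, 13.94 and 13.95 in 35S::JAW, and 13.94, 13.97 and 13.95 in wild type. Set directly against 35S::GA20OX, 35S::JAW was higher on average in all 12 PSA genes, from 0.05 to 0.15 with a median of 0.08, and in 9 of the 12 without overlap, where 15.9% of all loci were. PSAD1 (AT4G02770) shows the pattern, with 13.35, 13.27 and 13.27 in 35S::GA20OX, 13.42, 13.45 and 13.39 in 35S::JAW, and 13.35, 13.36 and 13.29 in wild type. PSAH1 (AT3G16140) had 13.22, 13.16 and 13.22 in 35S::GA20OX, 13.35, 13.34 and 13.26 in 35S::JAW, and 13.26, 13.27 and 13.22 in wild type. For both genes the difference of 35S::JAW from 35S::GA20OX was 0.12 ± 0.06, and neither passed (limma adjusted p = 0.228 and 0.256).

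PSB genes of the nucleus encode the PSBO, PSBP and PSBQ proteins that cover the oxygen-evolving cluster, PSBR beside them, the small membrane subunits PSBW and PSBY, and PSBS, which is required for the quick, energy-dependent release of excess light as heat. No PSB gene passed a test. All 9 differences of 35S::GA20OX from wild type were again negative, from -0.09 to -0.03 with a median of -0.07, and 4 of the 9 (PSBO1, PSBP1, PSBR and PSBY) lay below wild type without overlap, where 48.5% of all loci were negative and 8.3% lay below without overlap. PSBY (AT1G67740) had the lowest, with 13.41, 13.33 and 13.38 in 35S::GA20OX, 13.45, 13.38 and 13.42 in 35S::JAW, and 13.49, 13.43 and 13.48 in wild type. Its difference was -0.09 ± 0.06 (interval -0.22 to 0.04, limma adjusted p = 0.643). PSBR (AT1G79040) had 14.02, 14.00 and 13.99 in 35S::GA20OX, 14.07, 14.05 and 14.07 in 35S::JAW, and 14.08, 14.12 and 14.06 in wild type. PSBO1 (AT5G66570), the main form of the manganese-stabilising protein, had 13.96, 14.00 and 13.97 in 35S::GA20OX, 14.02, 13.99 and 13.99 in 35S::JAW, and 14.05, 14.06 and 14.02 in wild type.

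PSBS (AT1G44575) had the highest PSB difference in 35S::GA20OX, -0.03, and the lowest in 35S::JAW, -0.06 (interval -0.20 to 0.08). Its values were 13.54, 13.49 and 13.44 in 35S::GA20OX, 13.49, 13.46 and 13.42 in 35S::JAW, and 13.57, 13.44 and 13.54 in wild type, with every pair of genotypes overlapping. The highest PSB difference in 35S::JAW was that of PSBQ1 (AT4G21280), 0.04 (interval -0.10 to 0.19). PSBQ1 had 12.86, 12.92 and 12.75 in 35S::GA20OX, 12.93, 12.99 and 12.93 in 35S::JAW, and 12.92, 12.87 and 12.92 in wild type. The 35S::JAW arrays lay just above both other genotypes. The median PSB difference was -0.02 for 35S::JAW against wild type and 0.04 for 35S::JAW against 35S::GA20OX, with 8 of 9 positive in the second.

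Over all 33 genes together, 30 differences of 35S::GA20OX from wild type were negative and 3 positive, with a median of -0.05, against a median of 0.00 over all loci. In 11 genes the 35S::GA20OX arrays lay wholly below wild type (33.3%, beside 8.3% of all loci) and in 0 wholly above, where 8.53% of all loci were. Negative differences made up 48.5% of all loci in this comparison and positive ones 51.5%. For 35S::JAW against wild type, 17 were negative and 16 positive with a median of 0.00, and 4 genes lay wholly above and 1 wholly below, beside 14.2% and 11.4% of all loci. The shares over all loci were 46.1% negative and 53.9% positive. For 35S::JAW against 35S::GA20OX, 27 were positive and 6 negative with a median of 0.07, and 17 genes lay wholly above and 1 wholly below, beside 15.9% and 14.3% of all loci. Over all loci 47.3% were negative and 52.7% positive. The median of the 33 values was 13.65, 13.62 and 13.65 on the arrays of 35S::GA20OX, 13.74, 13.76 and 13.75 on those of 35S::JAW, and 13.73, 13.71 and 13.68 on those of wild type. The 3 lowest of these 9 medians are those of 35S::GA20OX. The genes of an array share its RNA and its normalisation, so they are not 33 independent observations, and no test was made of the list as a whole. With each array centred on its median, 10 differences of 35S::JAW from wild type were negative and 23 positive, and after cyclic loess between arrays 13 and 20.

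How large a change the scatter between arrays leaves room for can be read from the intervals. Each interval holds for 1 gene, without allowance for the number of genes. A difference reduced by normalisation or at the bright end is not covered by them. Without LHCB4.3, the 95% intervals of the other 32 genes stayed within -0.29 to 0.16 in 35S::GA20OX against wild type, that is at most 1.22-fold lower or 1.12-fold higher. For 35S::JAW against wild type they stayed within -0.45 to 0.29, at most 1.37-fold lower or 1.22-fold higher, and between the lines within -0.34 to 0.34. The lowest limma adjusted p among these 32 genes was 0.461 for 35S::GA20OX against wild type, 0.0559 for 35S::JAW against wild type and 0.0666 between the lines. An unadjusted p under 0.05 was reached by 2 of 33 genes for 35S::GA20OX against wild type (LHCB4.3 and LHCA5), beside 10.5% of all loci, and by 2 of 33 for 35S::JAW against wild type (LHCB4.3 and LHCB7), beside 20.7%. Between 35S::JAW and 35S::GA20OX 3 of 33 reached it (LHCB4.3, LHCB4.2 and PSAE2), beside 25.2%.

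The photosystem genes also occupy an unusual place on the arrays. Of the 33 genes, 29 had a mean of 12.45 or more, and all 29 were at or above the 99th percentile of loci. The highest value of the whole table, 14.56, belonged to LHCB6, and 19 genes had means within 1 of it. The SD within a genotype had a median of 0.041 over the 33 genes, from 0.016 to 0.109, against 0.103 over all loci, and 32 of the 33 were below that value. The 4 genes under 12 were LHCA5, LHCA6, LHCB7 and LHCB4.3. The only call was thus made in 1 of the 4 dimmer genes, and whether the response of the arrays flattens at the bright end was not tested.

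**Figure D3:**
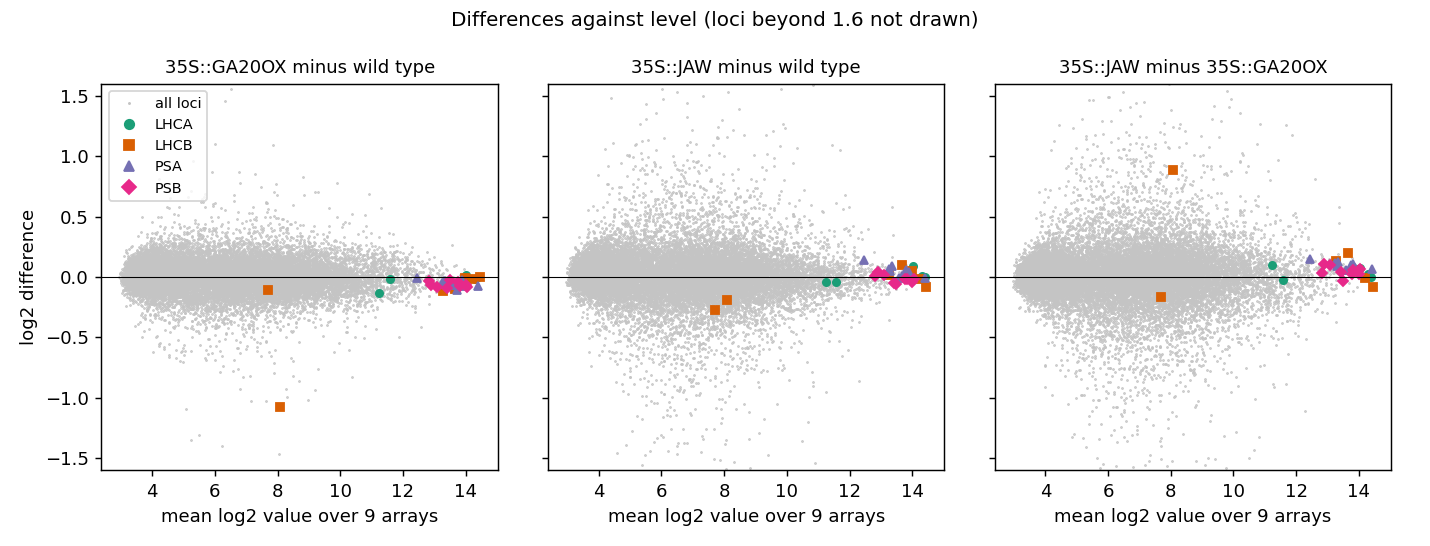
Difference between genotypes on the log2 scale (vertical axis) against the mean log2 value over the 9 arrays (horizontal axis), 1 panel per comparison; grey points are all loci, coloured symbols the LHCA, LHCB, PSA and PSB genes. Most coloured symbols sit at the right edge, at means of 12.45 or more and close to 0, and the LHCB symbol at -1.08 in the first panel and 0.89 in the last is LHCB4.3.

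Other genes of the same machinery were read from the same fits: 88 measured loci, out of 92 named in 7 lists. The lists hold electron carriers, nuclear ATP synthase subunits, the Calvin-Benson cycle, chlorophyll synthesis, photosystem assembly and antenna import, stress relatives of the antenna proteins, and regulators. In 35S::GA20OX 0 of the 88 passed against wild type, by limma, and 5 had an unadjusted p under 0.05, beside 10.5% of all loci. In 35S::JAW 6 fell and 0 rose against wild type. These 6 are 6.82% of the 88, beside 8.32% of all loci that passed in either direction, 3.98% that were lower and 4.34% that were higher. The unadjusted count was 15 of 88 for 35S::JAW against wild type, beside 20.7% of all loci, and 22 of 88 between the lines, beside 25.2%. Between 35S::JAW and 35S::GA20OX 5 were higher and 7 lower, 13.6% in all, beside 13.2% of all loci, so the totals of both comparisons that involve 35S::JAW are near the background.

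The 6 genes that fell in 35S::JAW were 4 regulators, 1 ferredoxin and 1 Calvin-Benson regulator. GLK1 (AT2G20570), a transcription factor known to activate antenna and chlorophyll synthesis genes, had 9.96, 10.07 and 9.97 in 35S::GA20OX, 9.81, 9.79 and 9.73 in 35S::JAW, and 10.05, 10.02 and 10.06 in wild type. It fell by 0.27 ± 0.06 in 35S::JAW (limma adjusted p = 0.0203), and its partner GLK2 (AT5G44190) had a difference of 0.17 ± 0.09 (0.305 in the same fit). GNL (AT4G26150), a GATA factor that promotes greening, had 5.64, 5.92 and 5.81 in 35S::GA20OX, 5.26, 5.10 and 5.18 in 35S::JAW, and 5.57, 5.62 and 5.62 in wild type. The 3 genotypes did not overlap, and GNL fell by 0.42 ± 0.08 in 35S::JAW (limma adjusted p = 0.00629). Its relative GNC (AT5G56860) had a difference of 0.25 ± 0.09, which did not pass. Set against 35S::GA20OX, 35S::JAW was lower in GLK1 (-0.22 ± 0.06, limma adjusted p = 0.0363) and higher in GLK2 (0.31 ± 0.09, 0.04 in the same fit). These 2 calls were lost in 8 and 7 of the 9 fits that leave out 1 array. GLK2, GNC and this comparison of GLK1 are named here after their values were seen.

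CIA2 (AT5G57180), a factor that promotes chloroplast protein import and translation genes, fell by 0.38 ± 0.09 in 35S::JAW (limma adjusted p = 0.0204). Its values were 8.76, 8.83 and 8.68 in 35S::GA20OX, 8.14, 8.06 and 8.23 in 35S::JAW, and 8.71, 8.39 and 8.49 in wild type. HYH (AT3G17609), a relative of the light-signalling factor HY5, fell by 0.40 ± 0.08 (0.0122), at values of 4.17 to 4.44 in 35S::JAW and 4.66 to 4.84 in wild type, near the lower quartile of the arrays. FD1 (AT1G10960), a minor leaf ferredoxin, had 11.60, 11.56 and 11.55 in 35S::JAW, against 11.94, 11.76 and 11.94 in wild type, and fell by 0.31 ± 0.07 (0.0141). CP12-2 (AT3G62410), whose protein binds and silences Calvin-Benson enzymes in the dark, had 10.69, 10.85 and 10.66 in 35S::JAW, against 11.13, 11.09 and 11.13 in wild type. CP12-2 fell by 0.38 ± 0.07 (limma adjusted p = 0.00747), with no overlap between the genotypes.

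The calls of CP12-2 and GNL held in each of the 9 fits that leave out 1 array. HYH was lost without wild type replicate 3 (adjusted p = 0.0589). FD1 and GLK1 were lost without 35S::JAW replicate 3, wild type replicate 1 or wild type replicate 3, with adjusted p up to 0.0691 and 0.0761. CIA2 was lost without 35S::JAW replicate 1 or 2, or wild type replicate 1 or 3, with adjusted p up to 0.0802. The count of 6 became 3 when wild type replicate 1 was left out and 2 when wild type replicate 3 was.

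Between the lines, the largest differences among the regulators were again negative. CIA2 was lower in 35S::JAW than in 35S::GA20OX, with a difference of -0.62 ± 0.09 (limma adjusted p = 0.000914), as were GNL with -0.61 ± 0.08 (0.00045) and HYH with -0.46 ± 0.08 (0.00405). SIG5, a sigma factor that directs the plastid RNA polymerase to photosystem II genes in blue light, was higher by 0.35 ± 0.10 (0.0359). OHP2, a one-helix relative of the antenna proteins needed for photosystem II assembly, was higher by 0.36 ± 0.07 (0.00818), with 10.69, 10.82 and 10.85 in 35S::GA20OX, 11.15, 11.23 and 11.05 in 35S::JAW, and 11.01, 11.10 and 10.97 in wild type. LIL3.2, a relative that serves chlorophyll synthesis, was higher by 0.20 ± 0.06 (0.0473), and these 2 were the stress relatives of the antenna that passed. All 8 of that list had positive differences, as did 52.7% of all loci, and LIL3.2 was lost in each of the 9 fits that leave out 1 array. CP12-2 was lower, at -0.40 ± 0.07 (0.00418), and so was FD1, at -0.23 ± 0.07 (0.0446), while the ferredoxin-NADP reductase gene LFNR1 was higher by 0.22 ± 0.06 (0.0445). The calls of CIA2, GNL, HYH, OHP2 and CP12-2 held without any single array. Those of the other 7 genes, SIG5, LIL3.2, FD1 and LFNR1 among them, were each lost in 7 to 9 of the 9 fits that leave out 1 array, and the total of 12 came to 5 or 6 in 8 of these fits and to 10 without wild type replicate 2.

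Where nothing passed, the furthest values were small. In 35S::GA20OX they were -0.24 ± 0.07 for OHP2, 0.23 ± 0.09 for CIA2 and 0.21 ± 0.10 for HEMA1, the glutamyl-tRNA reductase gene that opens chlorophyll synthesis (limma adjusted p = 0.283, 0.392 and 0.482). The phosphatase gene TAP38, which reverses state transitions, had -0.16, the ATP synthase gene ATPC2 had 0.14, the plastocyanin gene PETE2 had -0.11 and the fructose bisphosphatase gene HCEF1 had -0.10. In 35S::JAW against wild type the chlorophyll synthesis list (22 genes, median 0.00) reached 0.20 at HEMB1, the assembly and import list (13 genes, median 0.00) 0.17 at CPSRP43, and the stress relatives (8 genes, median 0.06) 0.20 at ELIP1. None of these 3 genes passed.

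**Figure D4:**
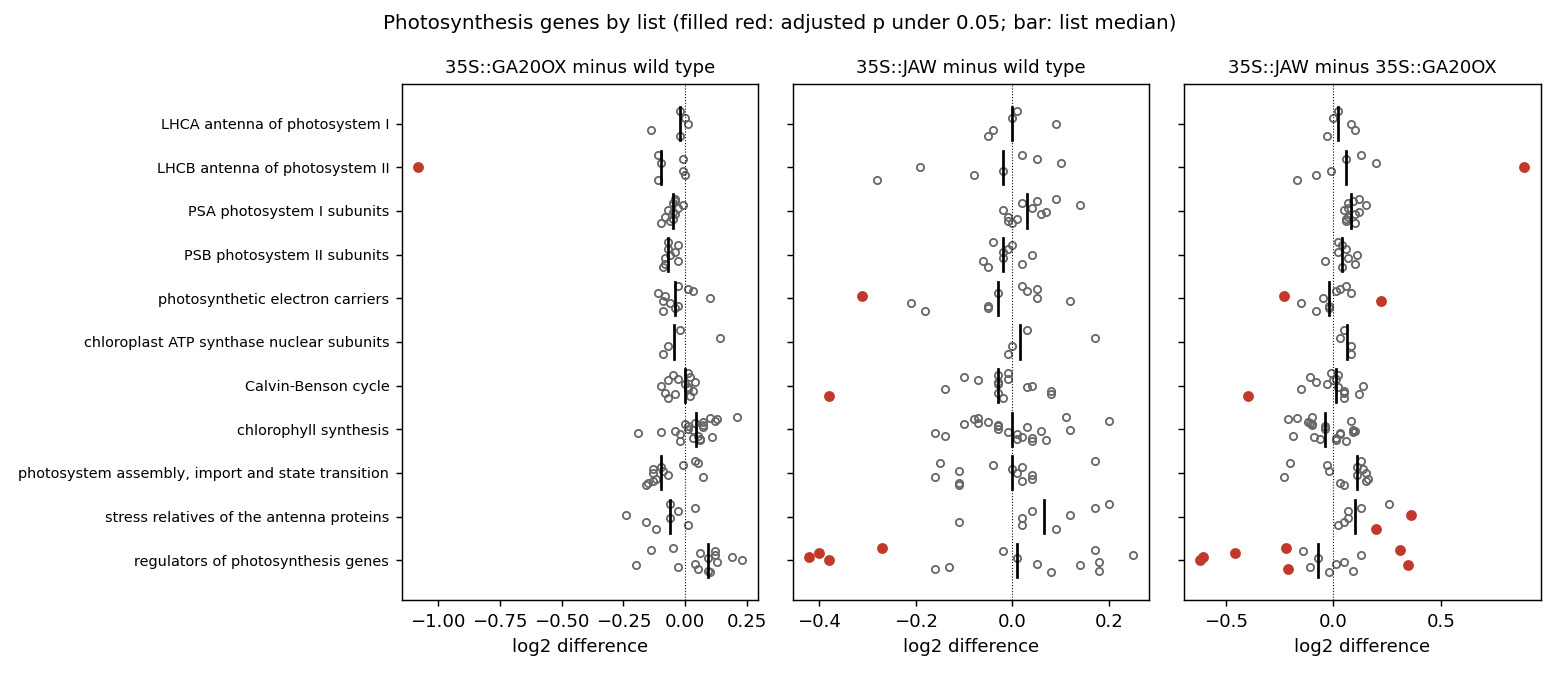
Log2 difference (horizontal axis, a range of its own in each panel) of every measured gene of the 4 photosystem and antenna lists and the 7 other photosynthesis lists, 1 panel per comparison; filled red points passed an adjusted p of 0.05, and the bar is the list median. The photosystem and antenna lists stay close to 0 apart from LHCB4.3, and the 4 red points in the regulator row of 35S::JAW against wild type are GNL, HYH, CIA2 and GLK1.

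Genes that report on clock time, on darkness or sugar supply, and on other cell types were read beside these values, because antenna genes are known to vary with all of them. In 35S::GA20OX, where LHCB4.3 fell, 0.332% of all loci passed against wild type. Of 7 clock genes 0 passed there, and of 3 dark and sugar starvation genes 0. The furthest were -0.18 ± 0.10 for PRR5 and -0.82 ± 0.26 for SEN1 (limma adjusted p = 0.596 and 0.290). In 35S::JAW against wild type 3.98% of all loci fell and 4.34% rose. Of the 7 clock genes 3 fell (ELF4 by 1.26 ± 0.14, TOC1 by 0.44 ± 0.09 and GI by 0.39 ± 0.08). All 3 dark and sugar starvation genes rose (ASN1 by 2.04 ± 0.29, SEN1 by 1.39 ± 0.26 and DIN10 by 0.94 ± 0.25). Those shifts stand beside the lower GLK1, GNL, HYH, CIA2, FD1 and CP12-2 of the same line, and their part in those results was not tested.

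Of the markers of epidermis, guard cells and trichomes, vascular tissue and dividing cells, 0 of 12 passed in either line against wild type, beside 0.332% of all loci in 35S::GA20OX and 8.32% in 35S::JAW. At an unadjusted p under 0.05 there were 2 of 12 in 35S::GA20OX, beside 10.5% of all loci, and 7 of 12 in 35S::JAW, beside 20.7%. Between 35S::JAW and 35S::GA20OX 5 of 12 passed, beside 13.2% of all loci. Guard cell genes went both ways, with MYB60 and FAMA higher in 35S::JAW and KAT1 lower. XCP1 and STM were also lower in 35S::JAW. The furthest in 35S::GA20OX was the guard cell gene MYB60, with 7.17, 6.57 and 6.75 in 35S::GA20OX, 7.73, 7.75 and 7.77 in 35S::JAW, and 7.32, 7.43 and 7.48 in wild type. Its difference from wild type was -0.58 ± 0.12 (limma adjusted p = 0.0993) in 35S::GA20OX, and between 35S::JAW and 35S::GA20OX it was 0.92 ± 0.12 (0.000608). Summed on the linear scale, the 5 epidermal markers ranged from 1589 to 1697 in 35S::GA20OX, 1526 to 1707 in 35S::JAW and 1612 to 1653 in wild type. That sum is set mostly by ATML1, at 9.86 to 10.18 on all arrays, and does not show the differences of MYB60 and KAT1. The 3 vascular markers summed to 1850 to 2027 in 35S::GA20OX, 1696 to 1730 in 35S::JAW and 1945 to 2100 in wild type, with XCP1 lower in 35S::JAW than in 35S::GA20OX (-0.72 ± 0.12, limma adjusted p = 0.00246). The 4 markers of dividing cells summed to 1077 to 1142 in 35S::GA20OX, 1006 to 1076 in 35S::JAW and 984 to 1046 in wild type, with STM lower in 35S::JAW than in 35S::GA20OX (-0.49 ± 0.11, limma adjusted p = 0.0162). The other guard cell genes did not move alike in 35S::GA20OX against wild type. FAMA had -0.16 ± 0.08 and KAT1 0.19 ± 0.13 (limma adjusted p = 0.533 and 0.654). The 3 arrays of 35S::GA20OX were the lowest of the 9 for MYB60 and FAMA as for LHCB4.3, while KAT1 differed from wild type in the other direction. For FAMA the gap was narrow, with 6.91, 7.04 and 7.05 in 35S::GA20OX and 7.09, 7.06 and 7.33 in wild type. The part of tissue make-up in the LHCB4.3 result was not tested.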

How the data were processed

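The authors deposited log2 values. They were made with RMA, as the submitters' processing notes name it, a method that corrects background, gives all arrays the same distribution by quantile normalisation and summarises probes per gene. A shift common to all bright genes would be reduced. No source used here gives its version, the chip definition or the genome build. The table has 1 row per AGI locus with no detection calls or scan dates, so no batch could be tested. The 9 arrays fall into 3 genotypes by their labels, all under 1 experiment number, and precision is limited by 3 arrays per genotype. Names came from the gene lists and from RefSeq's gene table (TAIR10.1), which held 20508 of the 20777 loci.

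In R 4.3.3, limma 3.58.1 was fitted with 1 mean per genotype over all 9 arrays (lmFit, eBayes, 6 residual and 5.04 prior degrees of freedom). Two-sided p-values were adjusted by Benjamini and Hochberg's method across the 20777 loci. No locus was filtered, and the code was tested on simulated data. The alternatives were another normalisation, centring, a filter on dim loci, a trended robust prior, array weights, a replicate block, a threshold of 2-fold, one of 0.01 for the adjusted p, fits of 6 arrays and leaving out each array. The genes and lists were chosen with earlier results of these data known. Values on every array are given for genes that passed, for the LHCB4 genes and for the highest and lowest difference of each photosystem list against wild type, and for some further genes chosen after their values were seen. Of the other lists, up to 4 called genes per comparison are named, or the 1 with the largest difference. Some further genes, such as GLK2 and GNC, were named after their values were seen. Residual correlations between genotypes were -0.10 to 0.25 for same-numbered arrays and -0.22 to 0.17 for the others, so whether replicate numbers pair samples is not settled. Promoter and protein sequences were not used here.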

Additional observations from a re-analysis of the deposited data

Results flagged for a closer look

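LHCB4.3 differed between the lines themselves. The test of 35S::JAW against 35S::GA20OX gave 0.89 on the log2 scale (standard error 0.09, limma adjusted p = 6.35e-05), with all 3 arrays of 35S::JAW above all 3 of 35S::GA20OX. It was the only photosystem or antenna gene of the 33 measured whose difference between the lines passed, beside 13.2% of all loci, although LHCB4.2 passed as well under 4 of 9 other settings.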

How the results depend on the processing

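The fall of LHCB4.3 in 35S::GA20OX passed in all 9 other settings (differences of -1.08 to -1.07) and in each of the 9 fits without 1 array (-1.15 to -1.01, adjusted p up to 0.00658). Genes of the 33 that passed for 35S::JAW against wild type numbered 1, LHCB7, after cyclic loess, without the dimmest 40% of loci, with a robust prior trended on intensity and with array weights, and 0 to 1 without single arrays. Between 35S::JAW and 35S::GA20OX they numbered 2, with LHCB4.2 added, after cyclic loess, after median centring, without dim loci and with the trended prior, and 0 with a 2-fold minimum. Median centring gave median differences of 0.018 for 35S::JAW against wild type and 0.083 between the lines, and leaving out single arrays gave -0.060 to -0.040 for 35S::GA20OX against wild type, -0.006 to 0.010 for 35S::JAW against wild type and 0.061 to 0.070 between the lines. The pathway genes, whose alternatives were added after the data were seen, gave for 35S::JAW against wild type 10 with the trended prior, 0 with a 2-fold minimum, 2 at an adjusted p of 0.01 and 2 to 6 without single arrays. Between the lines they gave 20 with the trended prior, 7 with the replicate block, 0 with a 2-fold minimum, 5 at an adjusted p of 0.01, 7 with only the 6 arrays compared and 5 to 10 without single arrays. The replicate block gave the same counts of photosystem genes, 1, 0 and 1. Whether replicate numbers pair samples is not settled, and why some pathway calls were lost under the block was not tested. Over all loci the calls ranged from 9 to 205 for 35S::GA20OX against wild type, from 168 to 2211 for 35S::JAW against wild type and from 224 to 3222 between the lines. HYH had no value without dim loci. The cause of these changes was not tested, beyond the fewer arrays or stricter thresholds of some settings. No detection calls are given, so signal over background limits the dim genes by an unknown amount, and 10 antenna and photosystem genes, LHCB1 among them, were not analysed here.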

Other observations

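The loci beside LHCB4.3 were read after its values were seen, in the order of RefSeq's gene table, with 3 measured loci on each side. In 35S::GA20OX 0 of these 6 passed against wild type, with differences from -0.16 to 0.08, beside 0.332% of all loci. In 35S::JAW 4 of the 6 passed, beside 8.32% of all loci, and whether the stretch differs from other loci was not tested: AT2G40070 by -0.42, the clock gene ELF4 (AT2G40080) by -1.26, AT2G40110 by 0.31 and AT2G40130 by -0.59 (limma adjusted p = 0.0488), while LHCB4.3 itself had -0.19 and did not pass. ELF4 had 7.71, 7.93 and 7.84 in 35S::GA20OX, 6.26, 6.94 and 6.60 in 35S::JAW, and 7.86, 7.86 and 7.88 in wild type, so its 35S::JAW arrays stood apart where those of 35S::GA20OX did for LHCB4.3.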
